A study of Mus musculus with 7 samples.

Results

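Border-associated macrophages were examined in the sorted cells through 8 of their marker genes, Mrc1, Cd163, Lyve1, Stab1, Folr2, Pf4, F13a1 and Cbr2. The genes were taken by name from the 55341 gene names of the deposited count table, and each matched 1 row and 1 GENCODE gene. The cells were CD11b+CD45low microglia, sorted from cortex of 5xFAD mice on the C57BL/6 strain at an age of 14 weeks. These mice express mutant human APP and PS1 from a promoter that is active in neurons, and microglia of both groups came from such hosts. Every host had received a suspension of embryonic cortical cells from WT mice 4 weeks before. Cells from the graft itself gave 3 libraries (inside graft) and cells from small pieces of neighbouring cortex gave 4 (outside graft). The number of mice behind a library is not given in the sources used here, so P values measure the spread between these libraries, which may in part be technical.

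Border-associated macrophages are the resident macrophages of the meninges, the perivascular spaces and the choroid plexus. Like microglia they depend on CSF1 receptor signalling and carry CD11b, but they take up material at the brain's borders through scavenger and lectin receptors that parenchymal microglia carry little of. Of the markers, Mrc1 encodes the mannose receptor CD206, Cd163 the receptor for haptoglobin-haemoglobin complexes, Stab1 the scavenger receptor stabilin-1, Lyve1 a hyaluronan receptor and Folr2 the folate receptor β. Pf4 encodes the secreted chemokine CXCL4, which platelets also hold, F13a1 the catalytic subunit of coagulation factor XIII, which monocytes also express, and Cbr2 a carbonyl reductase. Stab1 is also transcribed in microglia.

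In the GENCODE M21 annotation of GRCm38 used by the authors, Mrc1 (ENSMUSG00000026712.3) spans bases 14229392 to 14332057 of chromosome 2, plus strand, and Stab1 (ENSMUSG00000042286.13) spans bases 31139013 to 31168641 of chromosome 14, minus strand. Pf4 (ENSMUSG00000029373.7) is the shortest of the genes, with 3 merged exons between bases 90772435 and 90773383 of chromosome 5, plus strand. F13a1 (ENSMUSG00000039109.16) spans bases 36867178 to 37050244 of chromosome 13, minus strand. Cd163, Lyve1, Pf4 and Cbr2 overlap no other annotated gene, and Mrc1 holds Mir511 with no exon base in common. Strand was not used in counting, so an overlapping gene on the other strand can bear on a marker's count. By the recorded setting a read over exons of several genes went to the gene with the larger overlap, and featureCounts leaves a read with equal overlaps unassigned, so shared bases can add reads to a marker or take them away. Such overlap covers 112 exon bases of Stab1 (with Nt5dc2), 74 of F13a1 (with Gm30489) and 975 of the 1546 of Folr2 (with the antisense gene Gm10602). Folr2 is therefore the marker of the 8 with the most exon bases in such overlap.

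RefSeq promoter windows of the build GRCm38.p6 were found for 7 of the 8 genes, 9 windows in all. A gene was counted if any of its windows held a match, while the shares over all windows are per single window. They were searched on both strands, over the 250 bases before the RefSeq start, for the PU.1-type ETS core GAGGAA, the MAF half-site TGCTGA, the AP-1 site TGACTCA and the TATA box TATAAA. PU.1 and MAF proteins are factors of macrophage gene expression. The letters GAGGAA stood in the windows of 5 of the 7 genes (Mrc1, Stab1, Pf4, F13a1 and Cbr2) and in 23.3% of all 32851 windows of this length. The match of Cbr2, at -79 from the RefSeq start, lay inside the GENCODE transcript. TGCTGA stood in those of 2 genes (Stab1 and Folr2) and in 16.1% of all windows, TGACTCA in those of 1 gene (Folr2) and in 4.46%, and TATAAA in those of 0 genes and in 12.4%. The matches are descriptions of letters, not sites of binding. The windows of Mrc1, Pf4 and F13a1, whose mean levels were the 3 highest inside the graft after that of Stab1, are shown beside that of Stab1, which is the marker with another pattern in the counts. Capitals mark matches of the motifs named above, written as their reverse complement where the match lies on the opposite strand, and bases inside the GENCODE transcript were left off.
Mrc1, chr2:14229164-14229391, plus strand: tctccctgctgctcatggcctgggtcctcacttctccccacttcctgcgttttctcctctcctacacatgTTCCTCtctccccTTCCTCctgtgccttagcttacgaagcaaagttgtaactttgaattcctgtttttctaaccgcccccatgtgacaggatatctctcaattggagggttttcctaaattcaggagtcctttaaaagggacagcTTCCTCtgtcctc
Pf4, chr5:90772185-90772434, plus strand: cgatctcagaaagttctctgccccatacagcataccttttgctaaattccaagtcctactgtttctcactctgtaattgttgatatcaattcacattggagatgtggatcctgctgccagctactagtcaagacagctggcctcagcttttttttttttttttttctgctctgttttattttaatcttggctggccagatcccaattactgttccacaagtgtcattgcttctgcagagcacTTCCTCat
F13a1, chr13:37050245-37050494, minus strand: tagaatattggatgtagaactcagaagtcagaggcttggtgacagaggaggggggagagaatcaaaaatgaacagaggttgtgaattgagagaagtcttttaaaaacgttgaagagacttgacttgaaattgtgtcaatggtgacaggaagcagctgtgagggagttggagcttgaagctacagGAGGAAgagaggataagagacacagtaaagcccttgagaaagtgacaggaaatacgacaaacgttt
Stab1, chr14:31168642-31168891, minus strand: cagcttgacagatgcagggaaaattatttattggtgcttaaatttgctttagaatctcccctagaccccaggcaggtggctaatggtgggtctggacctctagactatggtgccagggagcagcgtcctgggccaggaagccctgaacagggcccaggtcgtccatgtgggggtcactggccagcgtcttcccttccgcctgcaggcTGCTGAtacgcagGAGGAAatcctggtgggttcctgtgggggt
In Mrc1 the 3 matches began at -180, -167 and -35 from the RefSeq start, in Pf4 the match began at -8 and in F13a1 at -66. The window of Stab1 held GAGGAA at -30 and TGCTGA at -43. Promoters of markers with higher and with lower levels inside the graft both held GAGGAA, so these letters did not separate them.

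Total counts ran from 18644807 to 25882122 per library. A count of 0 allows a level of up to 3 counts, which is 0.118 to 0.160 CPM depending on the library, and this limit covers counting error only. Values are given as CPM, a library's counts scaled to a common total with edgeR's TMM factors. In bulk libraries, more cells of a type and more RNA per cell cannot be told apart. Inside graft 2 stood apart from the other inside libraries in most markers, and outside graft 1, with the fewest counts, had the lowest weight in limma's voomWithQualityWeights (0.448). Results that rest on inside graft 2 are given with and without it. It was singled out by its low values in these markers, so leaving it out raises most of their fold changes by construction. Values without it are descriptions. Its quality weight of 0.915 lay between those of inside graft 1 (1.07) and inside graft 3 (0.799). Inside graft 2 also differed beyond these markers. Over tested genes with enough counts, a chi-square against counting noise, per degree of freedom, compared pairs of libraries. It was 70.4 between inside graft 2 and 1 and 89.4 between inside graft 2 and 3. Between inside graft 1 and 3 it was 48.6, and among outside libraries it reached 52.4.

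Of the 8 markers, 6 had higher mean levels inside the graft than outside it by a log2 fold change above 2, Stab1 had a lower mean level inside, and Lyve1 held too few counts to be tested. No marker passed edgeR's quasi-likelihood test at an adjusted P below 0.01 (0 of the 7 tested, where 0% of all 15257 genes tested were called higher inside), and 0 passed at 0.05 (0.0983% of all genes). With limma's voomWithQualityWeights, the test of the study's methods, 0 markers passed at 0.01 (0.0197% of all genes) and 0 at 0.05 (0.433%). At an unadjusted P below 0.05, edgeR had 4 markers higher inside the graft, Mrc1, Pf4, F13a1 and Cbr2 (5.76% of all genes), and voomWithQualityWeights had 5 higher (7.47% of all genes) and Stab1 lower (4.71% of all genes). In edgeR 0 markers were lower at that level, against 3.79% of all genes, and for 0 markers was every inside library below every outside one, against 5.02%. A log2 fold change above 2 was reached by 2.65% of all genes tested. The median log2 fold change was 2.46 over the 7 tested markers and -0.0064 over all genes tested. This median leaves out Lyve1 and rests on markers that passed a filter on low counts, which genes high in only one group can pass.

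**Figure D1:**
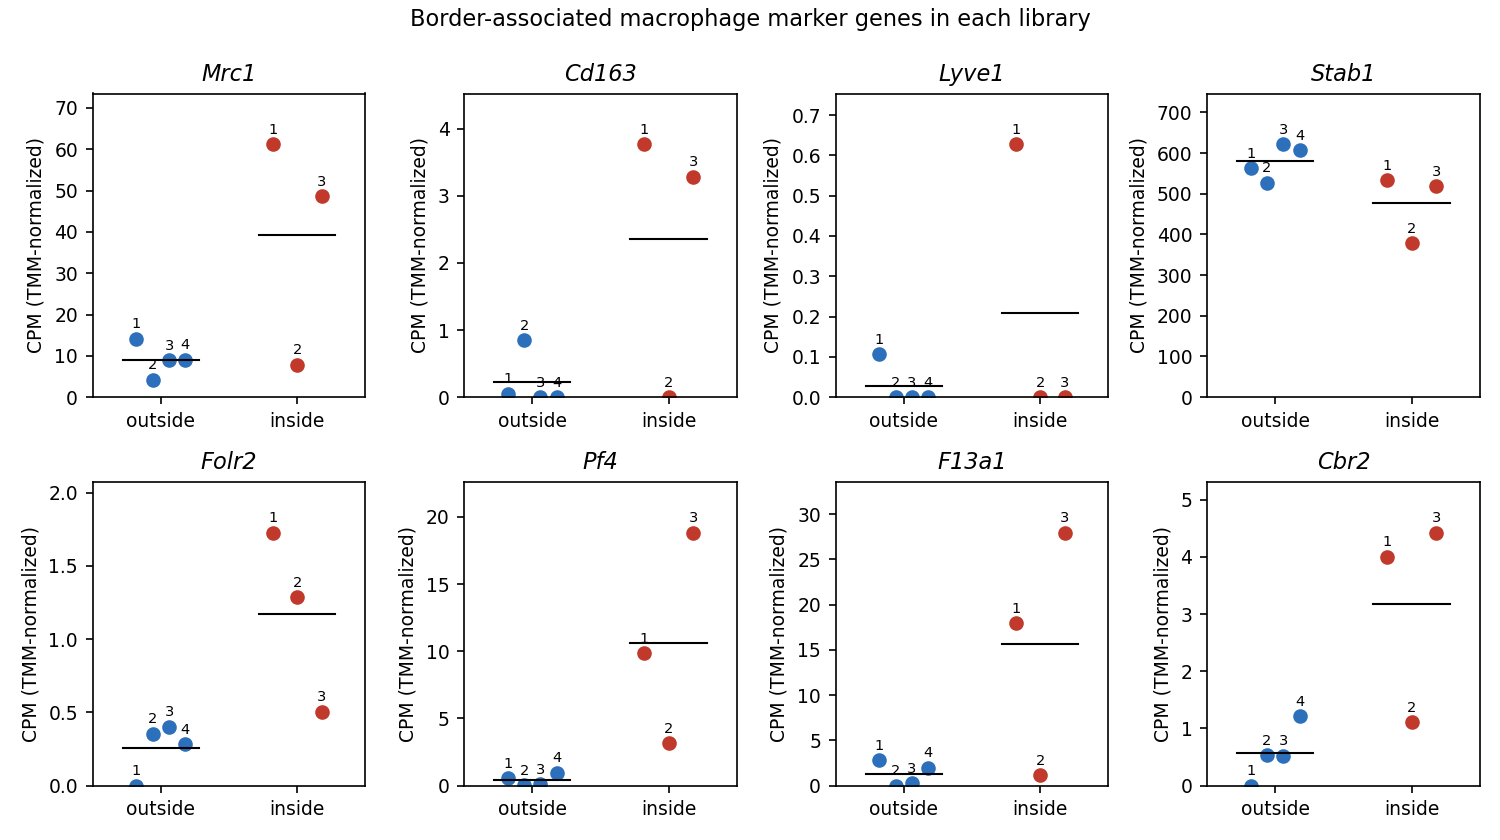
Level of each of the 8 markers in every library, in TMM-normalized CPM on a linear axis from 0 that differs between panels. Points are libraries with their replicate number (blue outside, red inside the graft) and black lines are group means, and inside graft 2 lies among the outside libraries for Mrc1 at 7.81 CPM and for F13a1 at 1.15 CPM, while every inside point lies above every outside point for Pf4 and Folr2.

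Among the scavenger receptors, Mrc1, Cd163 and Stab1 shared one order of the inside libraries, highest in inside graft 1 and lowest in inside graft 2, and Stab1 had a much narrower range. Mrc1 had 1560 counts (61.2 CPM), 176 (7.81) and 1153 (48.6) in inside graft 1, 2 and 3, and 266 (14.2), 94 (4.18), 224 (9.01) and 223 (9.03) in outside graft 1 to 4. Inside graft 1 and 3 were above every outside library, and inside graft 2 lay within the outside range. Mean levels were 39.2 ± 27.9 CPM inside (SD, n = 3) and 9.10 ± 4.09 outside (SD, n = 4), a log2 fold change of 2.11 (SE 0.585) with an adjusted P of 0.206 in edgeR and 0.273 in voomWithQualityWeights. Without inside graft 2, the log2 fold change was 2.60 in edgeR, with an adjusted P of 0.0283, and the adjusted P in voomWithQualityWeights was 0.0031, past the threshold. That library therefore decided the call for Mrc1 in the second test.

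Cd163 had 96 counts (3.77 CPM), 0 and 78 (3.29) inside the graft and 1 (0.0534 CPM), 19 (0.845), 0 and 0 outside it. Inside graft 2 and outside graft 3 and 4 thus held no count of this haemoglobin scavenger receptor, and inside graft 1 and 3 were above every outside library. The log2 fold change was 3.36 (SE 1.66), with an adjusted P of 0.572 in edgeR and 0.561 in voomWithQualityWeights. Without inside graft 2 the adjusted P was 0.442 in edgeR and 0.0489 in voomWithQualityWeights. In voomWithQualityWeights without that library, 4 markers passed 0.05 (Mrc1, Cd163, Pf4 and F13a1), against 1.23% of all genes called higher, and Mrc1 passed 0.01, against 0.206%. The library was left out for its low values in these same markers, so these calls are a description.

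Stab1 was by far the most abundant of the markers in every library. It had 13582 counts (533 CPM), 8536 (379) and 12319 (519) inside the graft and 10537 (562), 11858 (527), 15460 (622) and 15004 (608) outside it. Its lowest level was in inside graft 2, and inside graft 1 lay within the outside range. The mean was 477 ± 85.3 CPM inside (SD, n = 3) and 580 ± 43.2 outside (SD, n = 4), a log2 fold change of -0.28 (SE 0.136) with an adjusted P of 0.564 in edgeR and 0.295 in voomWithQualityWeights. Without inside graft 2 it was -0.14 in edgeR (adjusted P 0.809) and -0.17 in voomWithQualityWeights (adjusted P 0.586), and the unadjusted P of the second test no longer lay below 0.05. With all 7 libraries, the 95% interval of the edgeR fold change ran from -0.585 to 0.022. It lay below the intervals of Mrc1, Pf4, F13a1 and Cbr2. It overlapped those of Cd163 (-0.335 to 7.06) and Folr2 (-0.0716 to 4.34). Stab1 made up 83.4 to 96.3% of the summed CPM of the 8 markers inside the graft and 97.0 to 98.9% outside it, so a sum over the 8 genes follows Stab1. The other 7 markers together had 99.2, 14.5 and 104 CPM in inside graft 1, 2 and 3, and 17.7, 5.96, 10.3 and 13.5 CPM in outside graft 1 to 4.

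Lyve1, the hyaluronan receptor that marks a perivascular and leptomeningeal subset of these macrophages, was close to undetected. It had 16 counts (0.628 CPM) in inside graft 1, 2 counts (0.107 CPM) in outside graft 1 and 0 counts in the other 5 libraries. It did not pass the filter on low counts, and without that filter edgeR gave it an adjusted P of 0.649. Lyve1 is also a marker of lymphatic endothelium. At this depth a difference was not detectable.

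Folr2, the folate receptor β, had 44 counts (1.73 CPM), 29 (1.29) and 12 (0.506) inside the graft and 0, 8 (0.356 CPM), 10 (0.402) and 7 (0.284) outside it. All inside libraries were above all outside libraries, and Folr2 was the only one of the 8 markers whose lowest inside level was not in inside graft 2. The log2 fold change was 2.13 (SE 0.991), with an adjusted P of 0.545 in edgeR and 0.409 in voomWithQualityWeights. Without inside graft 2 it was 2.06 in edgeR (adjusted P 0.698) and 1.75 in voomWithQualityWeights (adjusted P 0.589). The unadjusted P of the second test was then 0.118 and no longer lay below 0.05. The antisense gene Gm10602, whose exons cover most of Folr2, had 114, 128 and 147 counts inside the graft and 63, 84, 109 and 72 outside it, and its part in the Folr2 counts was not tested.

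Pf4, the chemokine CXCL4, had the largest log2 fold change of the 7 tested markers in edgeR and in voomWithQualityWeights with all libraries. It had 251 counts (9.85 CPM), 71 (3.15) and 447 (18.8) inside the graft and 10 (0.534 CPM), 1 (0.0445), 3 (0.121) and 24 (0.972) outside it. Every inside library was above every outside library, a pattern that Pf4 and Folr2 showed among the 8 markers and 5.65% of all genes tested showed. Mean levels were 10.6 ± 7.87 CPM inside (SD, n = 3) and 0.418 ± 0.427 outside (SD, n = 4). The log2 fold change was 4.65 (SE 0.896, 95% interval 2.65 to 6.64), with an adjusted P of 0.0906 in edgeR and 0.124 in voomWithQualityWeights. Without inside graft 2 the log2 fold change was 5.08 in edgeR (adjusted P 0.0526) and 5.57 in voomWithQualityWeights (adjusted P 0.0261), where Cd163 at 6.20 and F13a1 at 5.63 were above Pf4. Pf4 did pass 0.01 with the DESeq2 Wald test (adjusted P 6.38e-06), which called 1.21% of all genes higher inside, and in edgeR without a filter on low counts (adjusted P 0.000627), where 0.63% of the genes were called higher. In that unfiltered edgeR test Mrc1 passed as well, with an adjusted P of 0.00627.

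F13a1, the factor XIII subunit, had 458 counts (17.98 CPM), 26 (1.15) and 664 (27.97) inside the graft and 53 (2.83 CPM), 0, 7 (0.282) and 49 (1.98) outside it. Inside graft 2 lay within the outside range, and the highest inside level was 24.2 times the lowest, the widest ratio among the markers with counts in every inside library. The log2 fold change was 3.63 (SE 1.18), with an adjusted P of 0.302 in edgeR and 0.408 in voomWithQualityWeights. Without inside graft 2 the adjusted P was 0.194 and 0.0296 in these tests.

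Cbr2, the carbonyl reductase, had 102 counts (4.004 CPM), 25 (1.11) and 105 (4.42) inside the graft and 0, 12 (0.534 CPM), 13 (0.523) and 30 (1.22) outside it. Inside graft 1 and 3 were above every outside library, and inside graft 2 was just below outside graft 4. The log2 fold change was 2.46 (SE 0.979), with an adjusted P of 0.437 in edgeR and 0.315 in voomWithQualityWeights. Without inside graft 2 the adjusted P was 0.429 in edgeR and 0.119 in voomWithQualityWeights.

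**Figure D2:**
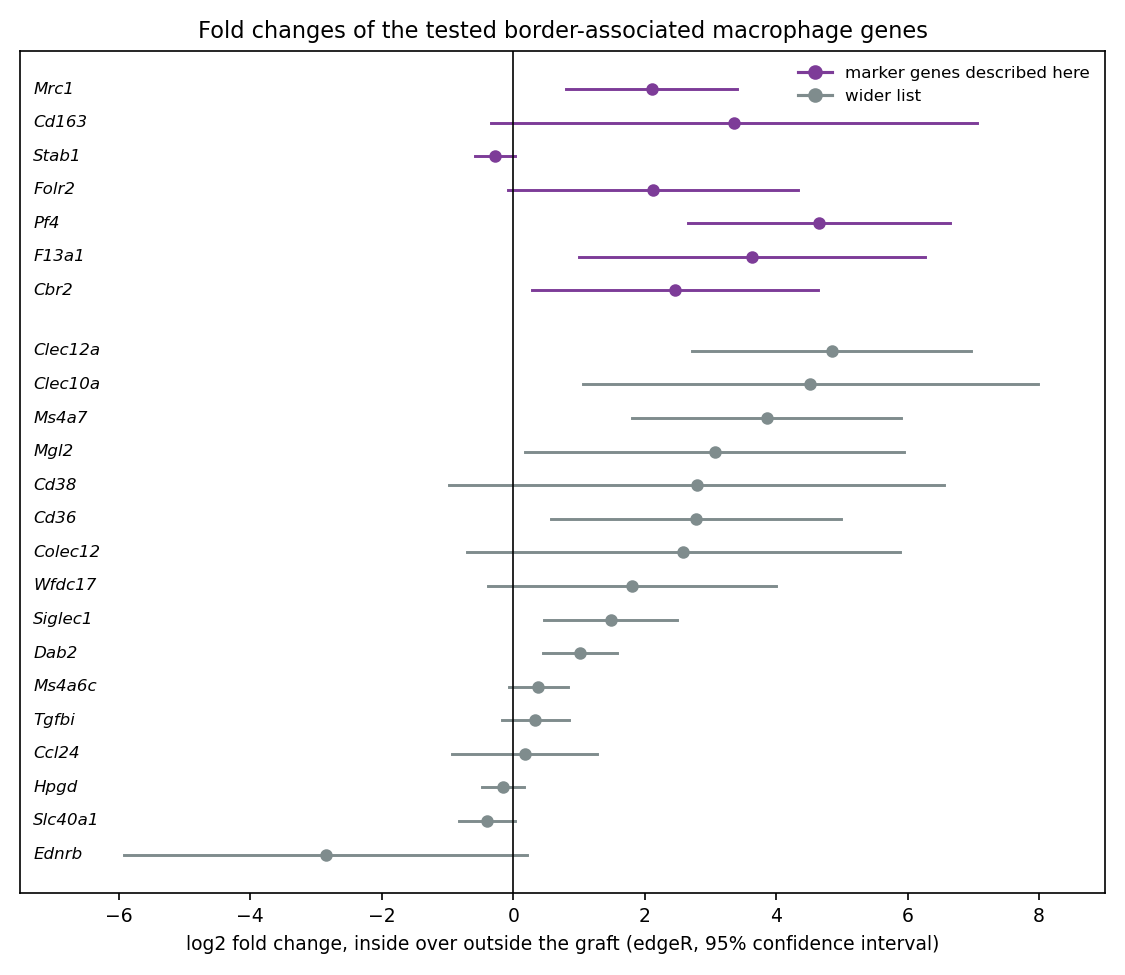
Log2 fold change between inside-graft and outside-graft libraries (positive where higher inside, edgeR) of the 7 tested markers in purple and of the 16 tested genes of a wider list of border macrophage genes in grey, with 95% confidence intervals that are not adjusted for the number of genes. Stab1 at -0.28 is the one marker below 0, and Pf4 at 4.65 is the highest marker.

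The markers ordered differently when compared per length. As CPM per kilobase of merged exon, mean levels inside the graft were 46.4 for Stab1, 14.7 for Pf4, 6.15 for Mrc1, 2.40 for Cbr2, 2.33 for F13a1, 0.759 for Folr2, 0.431 for Cd163 and 0.0717 for Lyve1. Outside the graft they were 56.4 for Stab1, 1.43 for Mrc1, 0.579 for Pf4, 0.428 for Cbr2, 0.189 for F13a1, 0.168 for Folr2, 0.0411 for Cd163 and 0.00914 for Lyve1. Pf4 thus stood above Mrc1 inside the graft and below it outside, although both are neighbours in the order and their ranges over libraries overlapped between genes in each group. Of the summed level per kilobase of the 7 markers without Stab1, Pf4 made up 44.1, 58.8 and 62.0% in inside graft 1 to 3 and 4.10 to 32.4% outside the graft, and these shares did not overlap. Mrc1 made up 31.0, 16.5 and 18.1% inside and 34.1 to 64.9% outside. The shares of Mrc1 did not overlap either, and lay the other way.

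**Figure D3:**
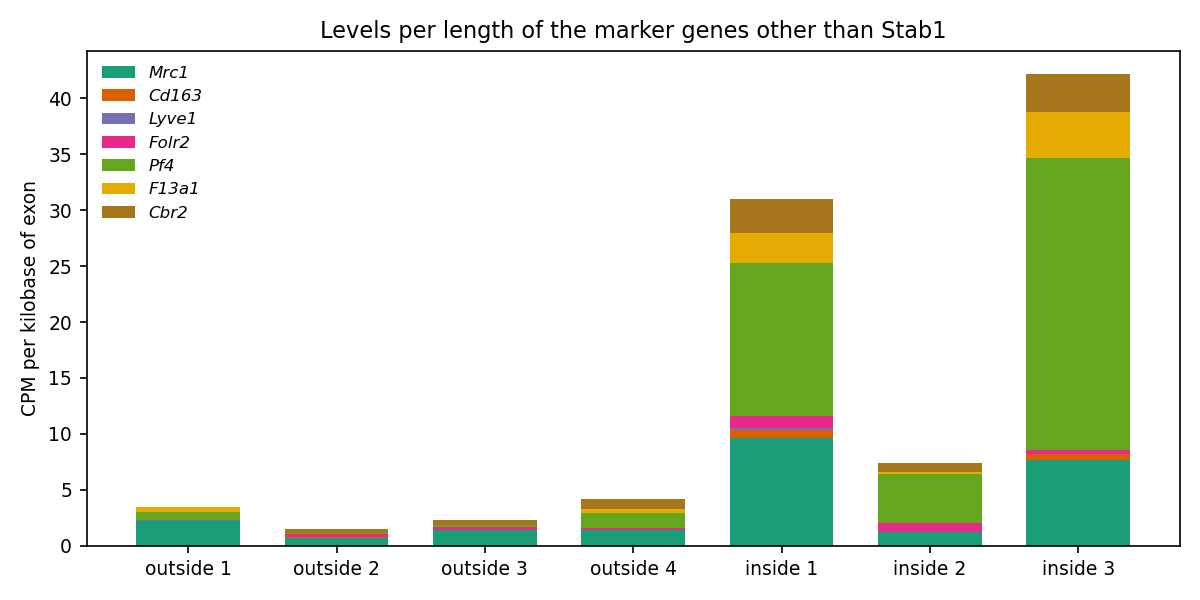
Level per kilobase of exon (CPM per kb, linear axis) of the 7 markers other than Stab1, stacked for each library. Pf4 is the largest part of each inside-graft bar, and Mrc1 is the largest part of each outside-graft bar.

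Within the inside group, most markers had high and low values in the same libraries. Both inside graft 1 and inside graft 3 were above every outside library for 6 of the 8 markers (Mrc1, Cd163, Folr2, Pf4, F13a1 and Cbr2), and 10.6% of all genes tested showed this. The pair of libraries was noticed in these values, so the share is a description. Inside graft 2 was above every outside library for 2 markers, Folr2 and Pf4. Relative to the outside mean, inside graft 1, 2 and 3 stood at 6.73, 0.858 and 5.34 times for Mrc1, at 14.1, 0.906 and 22.0 times for F13a1 and at 23.6, 7.54 and 45.1 times for Pf4. The highest inside level was in inside graft 1 for Mrc1, Cd163, Lyve1, Stab1 and Folr2 and in inside graft 3 for Pf4, F13a1 and Cbr2, so the markers did not share one library as their highest. The median SD of log2 CPM over the 6 tested markers without Stab1 was 1.45 inside the graft and 1.51 outside it, where several of these markers had counts near or at 0. Other tested genes of the same CPM range had medians of 0.462 inside and 0.542 outside. These 7135 genes were matched only by the range, 0.652 to 22.0 CPM, and not by the levels within it. Folr2, Cd163 and Cbr2 lay low in that range, with means of 0.652, 1.14 and 1.69 CPM over all libraries. The medians thus compare sets that may differ in level.

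As a description of how alike the markers were, the log2 CPM of each of the 7 tested markers was compared over the 7 libraries with the mean of their standardized values, which includes the marker itself. Pearson r was 0.917 for Mrc1, 0.866 for Pf4, 0.841 for F13a1, 0.839 for Cbr2, 0.776 for Cd163, 0.569 for Folr2 and -0.0214 for Stab1. Stab1 thus did not follow the other markers over these libraries. Among 15250 other genes, the 5 most like this mean were Actr3 (r 0.985), a subunit of the Arp2/3 complex, Gm13091 (0.980), C1qtnf12 (0.979), Tfdp1 (0.977), a partner of E2F transcription factors, and Slco4c1 (0.976), an organic anion transporter. Slco4c1 had 7.46, 0.222 and 8.55 CPM inside the graft and 0.0534, 0, 0 and 0.486 outside it, and C1qtnf12 had 5.50, 1.24 and 6.11 inside and 0.480 to 1.01 outside. Their adjusted P in edgeR was 0.183 and 0.169. These correlations share the 7 libraries and the split into inside and outside, and many genes would score highly by the choice of the best of so many.

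A wider list of 21 genes associated with border macrophages held 16 that could be tested. Of these, 13 had a positive and 3 a negative log2 fold change, and the median was 1.65. In edgeR 0 passed an adjusted P of 0.01 or 0.05, and 7 were higher at an unadjusted P below 0.05 (5.76% of all genes). Every inside library was above every outside library for 5 of them, Ms4a7, Siglec1, Clec12a, Dab2 and Wfdc17, against 5.65% of all genes tested. The 3 genes with the largest fold changes were Clec12a and Clec10a, both C-type lectin receptors, and Ms4a7. Clec12a had 32.7, 2.13 and 69.7 CPM inside the graft and 0.213 to 1.82 outside it (log2 fold change 4.85, adjusted P 0.0919 in edgeR). Clec10a had 5.42, 0.0888 and 3.45 CPM inside and 0 in all outside libraries other than outside graft 3, where it had 0.483 (4.52, adjusted P 0.338). Ms4a7, a membrane protein more typical of border macrophages than of microglia, had 15.2, 3.51 and 18.3 CPM inside and 0.107, 0.356, 0.362 and 2.51 outside (3.86, adjusted P 0.131). In all 3 genes, which were chosen for their fold changes, inside graft 2 was the lowest inside library. Other genes of the list had another order. Among them, Wfdc17 and Ccl24 were highest inside in inside graft 2. Cd36 and Colec12 were lowest inside in inside graft 1, and Hpgd in inside graft 3.

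The most abundant genes of the wider list, which microglia also express, had small fold changes as Stab1 did, but of both signs. Hpgd, a prostaglandin dehydrogenase, had means of 504.5 CPM inside and 561.6 outside (log2 fold change -0.15, adjusted P 0.819 in edgeR). The iron exporter Slc40a1 had 243 and 321.5 (-0.40, adjusted P 0.552) and Tgfbi 80.8 and 63.9 (0.34, adjusted P 0.724). Ednrb, a gene of low level named after its values were seen, had the most negative log2 fold change of the list. It was -2.85 (adjusted P 0.560 in edgeR), with means of 0.342 CPM inside and 2.53 outside. Siglec1 (CD169), named here after its values were seen, was the only gene of the list that passed 0.05 in voomWithQualityWeights, with an adjusted P of 0.0398 and a log2 fold change of 1.86, and its adjusted P in edgeR was 0.268. Siglec1 had 19.6, 18.4 and 34.2 CPM inside the graft and 17.9, 4.85, 5.43 and 6.40 outside it, so outside graft 1 stood next to the inside libraries. With one library left out, its adjusted P in voomWithQualityWeights ran from 0.0262 without inside graft 2 to 0.262 without outside graft 3, and it stayed below 0.05 in 2 of the 7 cases.

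Relatives of the markers by protein family had fold changes of both signs. Of 19 such genes 12 were tested, 4 with a positive and 8 with a negative log2 fold change. The median was -0.15, and 3 were above a log2 fold change of 2 (2.65% of all genes). In edgeR 0 passed 0.01 or 0.05. At an unadjusted P below 0.05, 2 were higher (5.76% of all genes) and 1 was lower (3.79%). Mrc2, the other mannose receptor family member of high level, had means of 73.3 CPM inside and 54.7 outside (log2 fold change 0.42, adjusted P 0.566), Tgm2, a transglutaminase like the factor XIII subunit, 76.4 and 105 (-0.46, adjusted P 0.546), and Dcxr, a carbonyl reductase, 44.1 and 58.3 (-0.40, adjusted P 0.430). The 3 above 2 were Ly75, Cd44 and Hmmr, named after their values were seen. Ly75 (DEC-205), of the mannose receptor family, had 10.6, 0.311 and 10.3 CPM inside the graft and 0, 0, 0 and 1.74 outside it (log2 fold change 3.98, adjusted P 0.438 in edgeR), so inside graft 2 lay within the outside range as for Mrc1. Cd44, a hyaluronan receptor, had 17.9, 10.9 and 27.9 CPM inside and 0.107, 1.96, 2.98 and 2.997 outside (3.22, adjusted P 0.109), with every inside library above every outside one. Hmmr, a hyaluronan-binding protein of dividing cells, had a log2 fold change of 2.01 (adjusted P 0.708). Stab2, the second stabilin, had at most 0.107 CPM in any library, F13b, the carrier subunit of factor XIII, had 0 counts in all 7, and so did Ppbp, the platelet chemokine beside Pf4.

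Markers of other cell types were read beside these values. The sum of 10 monocyte genes reached 767 CPM for inside graft 1, 116 for inside graft 2 and 1511 for inside graft 3. Outside libraries ranged from 24.7 to 63.3 CPM. Among the inside libraries this sum was thus lowest for inside graft 2, as were 7 of the 8 border macrophage markers. These 7 include Lyve1, which was tied at 0 counts with inside graft 3. The share of all genes tested with their lowest inside level in that library was not computed, so the 7 have no background to compare with. Of the monocyte genes 9 had a positive log2 fold change, and the median was 2.35. In edgeR 0 passed 0.01 or 0.05, and 6 were higher at an unadjusted P below 0.05 (5.76% of all genes). Inside the graft most of the sum was Chil3, so the sum there follows Chil3. Chil3 had 586.9, 67.6 and 1188.5 CPM inside and 0, 0, 15.0 and 1.38 outside (log2 fold change 7.19, adjusted P 0.0919). The haptoglobin gene Hp, whose product forms the ligand of Cd163 with haemoglobin, had 58.5, 3.51 and 112 CPM inside and 0, 0, 2.45 and 0.365 outside. Ly6c2, the monocyte surface antigen (named after its values were seen), had 0 counts in outside graft 1 and 2 and reached 71.7 CPM in inside graft 3. The chemokine receptor Ccr2 had 31.8, 4.26 and 73.0 CPM inside and 4.06, 13.7, 6.76 and 18.1 outside, so inside graft 2 lay near the lowest outside library. Not all genes of the list had this order. Thbs1 and Fn1, named after their values were seen, were lowest inside in inside graft 3. The log2 fold change of Thbs1 was 0.26, and that of Vcan was -0.03. The monocyte sum was highest in inside graft 3, as were Pf4, F13a1 and Cbr2, while Mrc1, Cd163 and Folr2 were highest in inside graft 1. The study's staining for this sort included an antibody to Ly6C among the lineage markers. The part of monocyte RNA in the marker values was not tested.

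**Figure D4:**
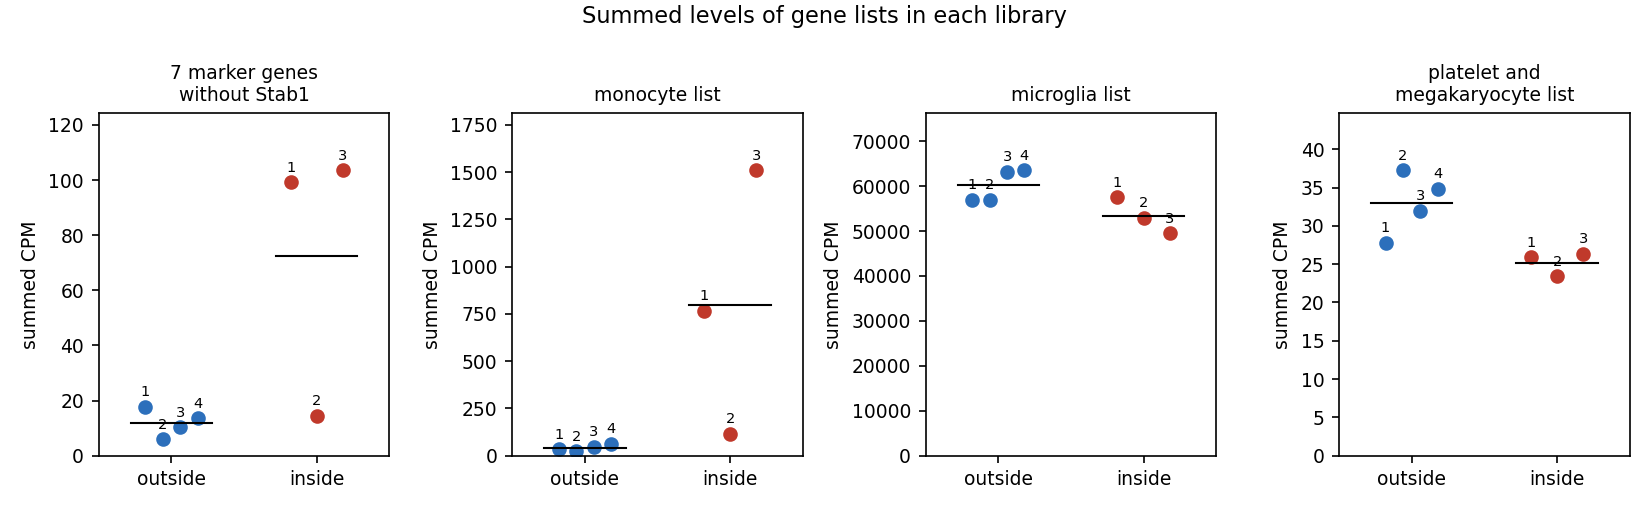
Summed CPM per library of the 7 markers without Stab1 and of the monocyte, microglia and platelet gene lists, on linear axes from 0 that differ between panels. Points are libraries with their replicate number (blue outside, red inside) and black lines are group means, and the marker and monocyte sums are both lowest inside the graft in inside graft 2, at 14.5 and 116 CPM.

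The labelled cell type was present in every library by its own markers. The 12 microglia genes summed to 49462 to 57460 CPM inside the graft and 56945 to 63552 outside it. All 12 had negative log2 fold changes (median -0.20). In edgeR 0 passed 0.01 or 0.05, and 7 were lower at an unadjusted P below 0.05 (3.79% of all genes). For 4 of the 12, every inside library was below every outside library (5.02% of all genes). Csf1r, the receptor for CSF1, had means of 11900 CPM inside and 13087 outside, and the fractalkine receptor Cx3cr1 6478 and 7389. Their adjusted P in edgeR was 0.757 and 0.496. Mrc1 at its highest, 61.2 CPM, was thus far below both. The genes of the sorted antigens were Itgam (CD11b), with 311 to 351 CPM inside and 260 to 389 outside, and Ptprc (CD45), with 530 to 567 inside and 353 to 477 outside. Ptprc did not overlap between groups and had a log2 fold change of 0.36 with an adjusted P of 0.337 in edgeR.

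Platelets hold Pf4 as well, and the part of platelet RNA in the Pf4 values was not tested. Summed over 8 platelet and megakaryocyte genes, the level was 23.4 to 26.4 CPM inside the graft and 27.8 to 37.3 outside it. Ppbp, Gp1bb and Tubb1 had 0 counts in all 7 libraries. Most of that sum was Gp9, with means of 20.3 CPM inside and 30.0 outside (log2 fold change -0.56, adjusted P 0.332), so the sum follows Gp9. Clec1b, with 3.96 and 2.38, and Itga2b, with 0.681 and 0.244, had higher means inside. Itga2b had 46 counts in inside graft 2 and 0 in inside graft 1 and 3. In edgeR 0 of the 2 tested genes passed 0.01 or 0.05, and 1 was lower at an unadjusted P below 0.05 (3.79% of all genes). Endothelial genes, 3 of 8 tested, summed to 29.6 to 38.7 CPM inside and 52.1 to 57.6 outside. Most of that sum was Pecam1 and Prox1 in every library, so the sum follows them. Of the 3 tested genes, 0 were called in edgeR at 0.01 or 0.05 and 1 was lower at an unadjusted P below 0.05 (3.79% of all genes). Pecam1 had means of 20.7 and 37.1 CPM (log2 fold change -0.84, adjusted P 0.206), Prox1 14.2 and 16.4, and Cdh5 0.323 and 1.10, while the lymphatic genes Pdpn and Ccl21a had 0 counts in all libraries. Dendritic cell genes, 3 of 5 tested and 0 called at 0.01, at 0.05 or at an unadjusted P below 0.05, summed to 14.6, 10.0 and 21.8 CPM inside and 4.32 to 11.3 outside. Zbtb46 had means of 9.39 and 6.46 CPM and Flt3 2.35 and 1.68, and Ccr7 reached 9.02 CPM in inside graft 3 and at most 0.0534 CPM in the other libraries.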

How the data were processed

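The authors aligned single reads (bcl2fastq 2.18, STAR 2.7.2a) to GRCm38.p6 and counted them with featureCounts 1.6.2 on GENCODE M21. They deposited raw counts per gene name, 1 column per library. The header's settings ignore strand and leave out multi-mapping reads, so genes with close copies are undercounted.

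Computed here were TMM CPM (for log2 CPM with a prior count of 2), edgeR 4.0.16 glmQLFit and glmQLFTest with robust=FALSE, and voomWithQualityWeights in limma 3.58.1 (R 4.3.3). Genes were filtered with filterByExpr by group, P values were adjusted by Benjamini-Hochberg over all 15257 genes, and the threshold was 0.01 (0.05 as an alternative). Alternatives were other normalizations, filters and tests (DESeq2 1.42.0), a replicate block and each library left out. The scripts were tested on simulated counts. Replicates differed pairwise by more than counting noise. Totals of 18644807 to 25882122 counts overstate the molecules sampled, since reads carried no molecular identifiers.

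The 8 markers and all gene lists were chosen with earlier results of these data known, so no list was tested as a set. Of each list the 3 genes with the highest mean CPM were named, of the wider list also the 3 with the largest absolute log2 fold change, and for likeness the 5 genes with the highest r. Of the genes so chosen, 1 is not reported here. Lists covered the wider border macrophage genes, relatives of the markers, microglia, monocytes, platelets and megakaryocytes, endothelium and dendritic cells.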

Additional observations from a re-analysis of the deposited data

Results flagged for a closer look

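Within the outside-graft libraries, the highest of the 4 values stood far from the other 3 by Dixon's criterion for 9 of the 27 marker and wider-list values examined. Chance gives about 1 in 20 for continuous values, but in 5 of the 9 the other libraries were all at 0, where the criterion is met by any single library with a count, so no excess over chance is read from the 9. For Cd163 this was outside graft 2 with 0.845 CPM, against 0 to 0.0534 in the others, and for Lyve1 outside graft 1 with 0.107 CPM, against 0.

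For Siglec1 it was outside graft 1 with 17.9 CPM, against 4.85 to 6.40. For Ms4a7 and Colec12 it was outside graft 4, with 2.51 CPM against 0.107 to 0.362 and with 0.972 CPM against 0 to 0.0402. For Clec10a, Fcna and Cd38 it was outside graft 3, with 0.483, 0.322 and 0.644 CPM against 0. For Cd209f it was outside graft 1 with 0.0534 CPM, which is 1 count. The library that stood out differed between genes, and most of these values rest on few counts. The inside group of 3 libraries was too small for this criterion.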

How the results depend on the processing

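Log2 fold changes of the 7 tested markers kept their sign under every alternative that gave a value. They ran from 1.28 to 2.75 for Mrc1, 3.94 to 6.02 for Pf4, 2.91 to 5.91 for F13a1, 1.85 to 3.31 for Cbr2, 2.57 to 6.20 for Cd163, 1.49 to 2.49 for Folr2 and -0.42 to -0.14 for Stab1. The number of markers past an adjusted P of 0.01, 0 in edgeR and in voomWithQualityWeights, became 2 without a filter on low counts (Mrc1 and Pf4) and 1 with DESeq2 (Pf4). For the wider list the 0 became 2 and 3. With each library left out it stayed at 0 to 0 in edgeR for both lists, and in voomWithQualityWeights (an alternative chosen after seeing the data) it ran from 0 to 1 for both, the 1 being without inside graft 2, where 4 markers passed 0.05. The cause of these changes was not tested.

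With at least 10 counts in every library, 2 markers and 7 wider-list genes could be tested, and the medians became 0.93 and 0.35. Without a filter the median of the wider list, then over 20 genes, was 2.63. With each library left out, the medians ran from 2.27 to 2.95 (edgeR) and 1.92 to 2.86 (voomWithQualityWeights) for the markers, and from 1.12 to 1.89 and 1.15 to 1.85 for the wider list.

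Deviations of libraries with the same replicate number had correlations of -0.0432, 0.0902 and 0.0666 for replicates 1, 2 and 3. Inside graft 1 was closest to outside graft 4 (0.0637). Inside graft 2 and 3 were each closest to the outside library of the same number. These correlations were all small, and whether a number marks the same host is not given in the sources used here. With the replicate number as a block, 0 markers and 0 wider-list genes passed 0.01, the medians were 3.31 and 1.58, and the pairing changed no call. Depth limits what a 0 shows: 3 counts are up to 0.160 CPM, which bears on Lyve1 and Cd163 in the libraries without a count.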
